A study of Mus musculus with 4 samples.

Results

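Nuclear copies of mitochondrial genes that lie outside chromosome 1 and have diverged from the mitochondrial sequence were followed in isolated mitochondria and in the non-mitochondrial fraction of brown adipose tissue. The set held 9 of the 17259 listed genes: Gm13341, Gm13339, Gm4076, Gm11407, Gm11408, Gm11410, Gm11512, Gm50174 and Gm20594. They were selected on their resemblance to mitochondrial genes and with their values in both fractions already known. Their level in a fraction, the difference between the fractions and the number of them that passed a genome-wide fit are therefore given as a description, and no p-value of that difference is given for a member.

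Nuclear mitochondrial sequences are pieces of the mitochondrial genome that were inserted into chromosomes in the course of evolution. They are usually taken to be non-functional, since mitochondria use their own genetic code, and they drift away from the mitochondrial sequence by mutation. A short read from a mitochondrial transcript can fit such a copy as well as the gene it came from, so a count at the copy need not stem from transcription of the copy. Brown fat burns fuel for heat and is rich in mitochondria and in their transcripts.

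The samples were 4 RNA-seq libraries of WT mice in 2 groups of 2. One group came from isolated mitochondria and the other from brown adipose tissue after removal of mitochondria. The latter carry titles that speak of total tissue but a treatment label that says mitochondria were taken out, and the grouping here rests on that label. The study's own legend for these libraries speaks of lysates of total brown fat as well, so whether mitochondria had been removed is uncertain, and the name non-mitochondrial fraction follows the label alone. Should the libraries hold whole tissue, the differences below would be between mitochondria and the tissue that contains them. No label gave age or sex or stated that replicates were separate animals, so any spread between replicates may be technical. RNA fragmentation was adjusted for mitochondrial samples, and the methods, written for hearts, also describe an RNase A treatment of isolated mitochondria. Preparation and fraction therefore cannot be told apart.

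The deposited values were normalised counts, meaning reads per gene divided by a size factor of the library and rounded, and are called units here. In the mitochondria libraries values rose in steps of whole reads, which gave 26288872 and 24910431 reads in genes. The totals were 218773335 and 171918657 units in mitochondria but 1590096 and 1905303 units in the non-mitochondrial libraries, where the reads are unknown. The deposited scaling thus gave the mitochondria libraries far larger totals, and every fold change in units below includes that difference. Mitochondrially encoded genes made up 95.3% and 95.5% of the units in mitochondria and 51.1% and 59.3% in the other fraction. All 10 brown adipocyte markers were listed, with summed units of 2905 and 7833 in mitochondria and 13668 and 12210 in the other fraction. Liver markers summed to 9062 and 629 units in mitochondria and to 152 and 4 in the other fraction, and their part in the values below was not tested.

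The members came from 8 mitochondrial genes, here called counterparts. The counterpart is the mitochondrial gene with the most bases aligned to the exons of the member. Gm11407 and Gm4076 match mt-Nd5, Gm13339 matches mt-Nd2 and Gm11408 matches mt-Nd6, which encode subunits of complex I of the respiratory chain. Gm11410 matches mt-Cytb, the cytochrome b of complex III. Gm13341 matches mt-Co2 and Gm11512 matches mt-Co1, subunits of cytochrome c oxidase. Gm50174 matches mt-Atp6, a subunit of the ATP synthase, and Gm20594 matches mt-Rnr2, the large ribosomal RNA of mitochondria. All 9 members had a single exon and the orientation of their counterpart.

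The following stretches of 75 bases, the longest read of the study, show how a member differs from its counterpart. Each is the first stretch along the mitochondrial genome that aligns without gaps and has the median number of differences among such stretches, summed over Gm4076 and Gm11407 for mt-Nd5. Capitals mark the bases of the member that differ from the mitochondrial sequence. Sequences run 5′ to 3′ on the strand of the gene and come from the GENCODE M21 transcripts of build GRCm38.
mt-Co2: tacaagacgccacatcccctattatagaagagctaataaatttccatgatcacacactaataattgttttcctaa
Gm13341: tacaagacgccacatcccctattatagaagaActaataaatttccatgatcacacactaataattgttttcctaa
mt-Nd2: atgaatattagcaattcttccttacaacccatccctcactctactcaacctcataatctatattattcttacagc
Gm13339: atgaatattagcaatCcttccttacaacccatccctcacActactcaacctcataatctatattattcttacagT
mt-Nd5: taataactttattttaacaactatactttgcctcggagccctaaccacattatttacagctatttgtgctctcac
Gm4076: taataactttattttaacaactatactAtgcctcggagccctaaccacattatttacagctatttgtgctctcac
Gm11407: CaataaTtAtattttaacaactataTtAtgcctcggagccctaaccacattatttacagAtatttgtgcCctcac
mt-Nd6: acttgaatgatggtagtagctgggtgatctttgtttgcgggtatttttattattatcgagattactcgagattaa
Gm11408: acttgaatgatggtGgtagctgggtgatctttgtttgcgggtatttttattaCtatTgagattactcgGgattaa
mt-Cytb: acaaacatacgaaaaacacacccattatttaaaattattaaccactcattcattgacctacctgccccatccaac
Gm11410: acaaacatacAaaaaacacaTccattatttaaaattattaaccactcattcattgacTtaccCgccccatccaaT
mt-Co1: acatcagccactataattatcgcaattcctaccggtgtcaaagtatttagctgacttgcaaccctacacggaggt
Gm11512: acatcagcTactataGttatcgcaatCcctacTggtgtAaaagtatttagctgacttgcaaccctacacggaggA
mt-Rnr2: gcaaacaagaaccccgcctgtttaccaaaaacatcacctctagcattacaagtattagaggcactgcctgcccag
Gm20594: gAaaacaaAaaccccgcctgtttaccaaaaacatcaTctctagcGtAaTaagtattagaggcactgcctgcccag

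The stretches lie at chr2:22587863-22587937 on the minus strand for Gm13341, chr2:22590424-22590498 minus for Gm13339, chr13:85127339-85127413 minus for Gm4076 and chr4:80002390-80002464 plus for Gm11407. They lie at chr4:80003396-80003470 minus for Gm11408, chr4:80003992-80004066 plus for Gm11410, chr11:90539036-90539110 minus for Gm11512 and chr6:79818095-79818169 plus for Gm20594. The mitochondrial stretches lie at chrM:7038-7112 in mt-Co2, chrM:4477-4551 in mt-Nd2, chrM:12548-12622 in mt-Nd5, chrM:13552-13626 in mt-Nd6, chrM:14148-14222 in mt-Cytb, chrM:6243-6317 in mt-Co1 and chrM:1914-1988 in mt-Rnr2, with mt-Nd6 on the minus strand and the others on the plus strand. In these stretches Gm13341 and Gm4076 carry 1 difference, Gm13339 carries 3, Gm11408 carries 4, Gm11410 carries 5, Gm11512 and Gm20594 carry 6 and Gm11407 carries 7.

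The 9 members are not 9 separate insertions. Gm11407, Gm11408 and Gm11410 lie within 2801 bp of chromosome 4 in the order of the mitochondrial genome. The distance between Gm11407 and Gm11408 was 8 bp both on chromosome 4 and between the matching mitochondrial bases, and that between Gm11408 and Gm11410 was 75 bp against 76 bp. Gm13341 and Gm13339 lie within 3243 bp of chromosome 2 with Gm13340, a copy of mt-Co1 that is no member, between them. The distances along chromosome 2, 377 bp and 141 bp, equalled those of the mitochondrial genome. Members of one insertion share its history and are no independent examples.

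Identity to the mitochondrial genome, counted over aligned bases, ran from 88.5% to 96.7% with a median of 93.6%. It was highest in the chromosome 2 pair, 96.7% for Gm13339 (ENSMUSG00000082884, chr2:22590024-22590533) and 95.9% for Gm13341 (ENSMUSG00000083863, chr2:22587291-22587962). Both are unprocessed pseudogenes on the minus strand inside an intron of Myo3a, a myosin gene that runs on the other strand. Gm13341 differs from mt-Co2 by 16 mismatches and lacks 12 bases, a length that keeps the reading frame. Gm4076 (ENSMUSG00000096449, chr13:85126550-85127514, minus strand) was 95.2% identical to its counterpart.

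On chromosome 4 identity was 92.3% for Gm11407 (ENSMUSG00000082179, chr4:80002331-80003388, plus), 93.6% for Gm11408 (ENSMUSG00000083076, chr4:80003396-80003914, minus) and 92.9% for Gm11410 (ENSMUSG00000083219, chr4:80003989-80005131, plus). Gm50174 (ENSMUSG00000117910, chr18:65837287-65837475, plus), the shortest member with 189 bases, reached 93.6%. Gm11512 (ENSMUSG00000081043, chr11:90538484-90539146, minus) lies in an intron of Stxbp4, a syntaxin-binding protein gene of the same strand, and reached 90.7%. Gm20594 (ENSMUSG00000096887, chr6:79817916-79818364, plus) was the most diverged member at 88.5%. It is annotated as protein-coding and not as a pseudogene. The small reading frame of the humanin peptide was described in the human form of mt-Rnr2, and the mouse form was not examined for it. The name pseudogene therefore covers 8 of the 9 members.

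Every window of 75 bases in a member was compared with the mitochondrial genome to count the positions at which a mitochondrial read could not be told from one of the member. Of 5502 windows, 222 (4.04%) were identical to a mitochondrial window. They lay in 4 members, 138 of 598 windows in Gm13341, 55 of 436 in Gm13339, 21 of 984 in Gm11407 and 8 of 891 in Gm4076. The other 5 members had no identical window of that length. Trimmed reads were in part shorter, and with windows of 50 bases 7 members held identical ones, among them Gm20594 with 16, Gm50174 with 6 and Gm11512 with 5, while Gm11408 and Gm11410 still had none. More than 7 differences, gap bases included, were found in 1023 windows (18.6%). The aligner allowed mismatches at up to 10% of the read, but that limit concerns mismatches and not gaps, so these windows are not a count of places where a mitochondrial read could not have been aligned. Such windows made up 49.6% of Gm20594, 40.2% of Gm11512 and 29.4% of Gm11407 but none of Gm13339 and Gm50174.

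**Figure D1:**
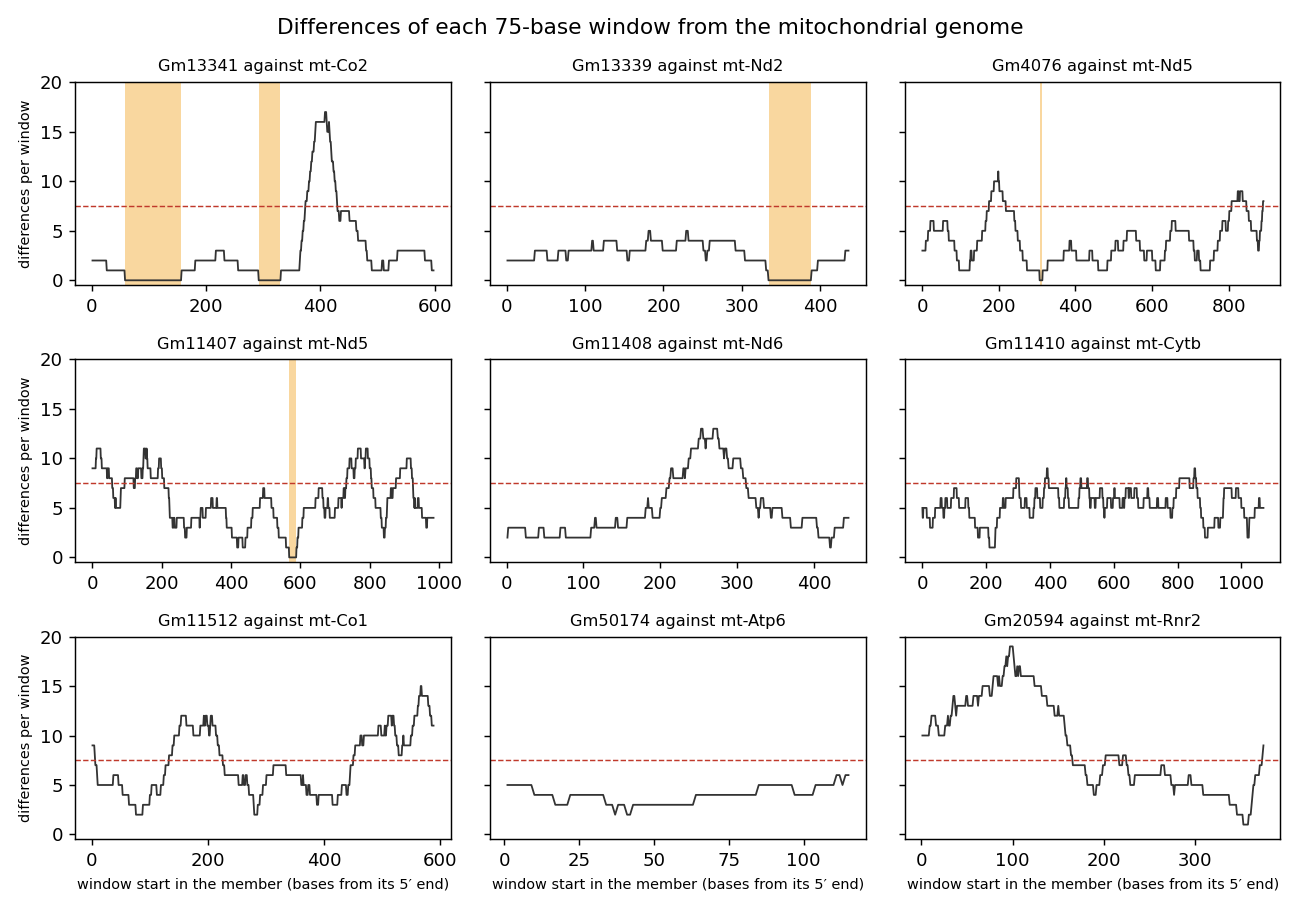
Number of differences (vertical axis) between each 75-base window of a member and the closest stretch of the mitochondrial genome, against the start of the window in bases from the 5′ end of the member (horizontal axis). Shading marks identical windows, found in 4 members, and the dashed line separates windows with up to 7 differences from those with more; the peak in Gm13341 spans its 12 missing bases.

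Reads that fit more than one place were present in these values, although the methods of the study describe leaving them out. Gm28661, a chromosome 1 copy of mt-Co2 that is no member, has 607 windows of 75 bases and all 607 are identical to mt-Co2. It nevertheless held 167503 reads in mitochondria replicate 1, where mt-Co2 held 161504. All 138 identical windows of Gm13341 also occur in Gm28661. How reads were shared out between a member and its counterpart is not known from these values.

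The highest member was Gm13341, the copy of mt-Co2. It held 257455 and 208175 units in mitochondria, or 30937 and 30164 reads, and 932 and 1194 units in the non-mitochondrial fraction. Its values in mitochondria, as deposited, thus lay far above the others. In bulk libraries of fractions, the number of mitochondria or of cells of a type that fed a library and the RNA in each of them cannot be told apart. Its log2 fold change, computed on values plus 1, was 7.78 (SE 0.44), beside 7.68 (SE 0.45) for mt-Co2. Per kilobase of exon it held 383100 units in mitochondria replicate 1 against 1965000 for mt-Co2.

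The next was Gm13339, the copy of mt-Nd2. It held 107078 and 84487 units in mitochondria, 12867 and 12242 reads, and 404 and 575 units in the other fraction. The log2 fold change was 7.62 (SE 0.47), against 7.15 (SE 0.47) for mt-Nd2. The groups of Gm13339 did not overlap, and the difference of 0.47 from its counterpart was positive.

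Gm20594, the copy of the large ribosomal RNA, held 23010 and 12982 units in mitochondria, 2765 and 1881 reads, and 138 and 177 units in the other fraction. The log2 fold change was 6.78 (SE 0.53), 1.03 below the 7.80 of mt-Rnr2 (SE 0.46). As deposited, both libraries of mitochondria were again the higher ones, and replicate 1 was well above replicate 2. As a share of all units in the library, Gm20594 took 0.0105% and 0.00755% in mitochondria and 0.00868% and 0.00929% in the other fraction. The groups of these shares overlapped.

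The copies of mt-Nd5, the largest complex I gene of mitochondria, were close to each other. Gm4076 held 5817 and 4355 units in mitochondria, 699 and 631 reads, and 18 and 27 units in the other fraction. Gm11407 held 4669 and 4148 units, 561 and 601 reads, and 15 and 24 units. Gm4076 and Gm11407 are 95.6% identical to each other over 912 aligned bases. Their log2 fold changes of 7.77 (SE 0.49) and 7.78 (SE 0.48) stood beside 7.79 (SE 0.48) for mt-Nd5.

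The other 4 members had no more than 2 units in either non-mitochondrial library. Gm11408, the copy of mt-Nd6, held 341 and 55 units in mitochondria, 41 and 8 reads, and 1 and 2 units in the other fraction. Gm11512, the copy of mt-Co1, held 241 and 159 units, 29 and 23 reads, and 2 and 1 units. For Gm11512 and Gm11408 all mitochondria values, as deposited, exceeded the others.

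Gm50174, the copy of mt-Atp6, held 175 and 62 units in mitochondria, 21 and 9 reads, and was listed at 0 and 1 unit in the other fraction. Gm11410, the copy of mt-Cytb, held 108 and 97 units, 13 and 14 reads, and 1 unit in each library of the other fraction. In these 4 members the value of 1 added before the logarithm is as large as the non-mitochondrial values, so their fold changes understate the difference. The log2 fold changes were 5.82 (SE 1.11) for Gm11408, 6.33 (SE 0.52) for Gm11512, 6.22 (SE 0.80) for Gm50174 and 5.69 (SE 0.41) for Gm11410. Without mitochondria replicate 1 or 2 they came to 4.51 and 7.13 for Gm11408 and to 5.48 and 6.96 for Gm50174. They moved less for Gm11512, to 6.03 and 6.63, and for Gm11410, to 5.61 and 5.77.

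**Figure D2:**
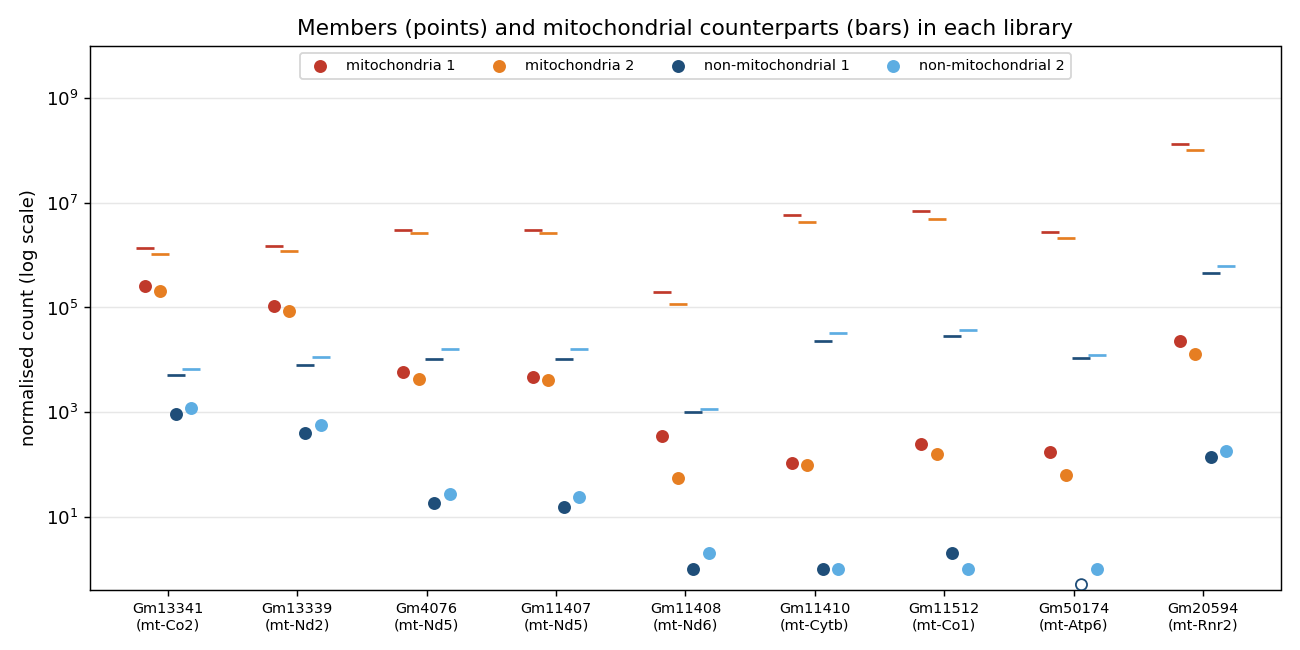
Normalised count (vertical axis, log scale) of each member (points) and of its mitochondrial counterpart (short bars), coloured by library, for 2 libraries of mitochondria and 2 of the non-mitochondrial fraction. As deposited, both mitochondria libraries lie above both others in all 9 members and in 8.59% of all genes tested, but in 4 members and 0.523% of genes when scaled to the library total; the open circle at the lower edge is Gm50174, listed at 0 in non-mitochondrial replicate 1.

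With limma fitted over the 8215 genes with a mean of at least 10 units, 7 of the 9 members passed an adjusted p of 0.05 in the direction of mitochondria, as did 66 genes in all (0.803%). Since the members were chosen with this contrast known, nothing is read from that count. Gm11408 and Gm50174 were the members outside it. The median log2 fold change of the members was 6.78, against 7.09 for the 37 mitochondrially encoded genes, of which 37 passed, 7.55 for the 7 chromosome 1 copies, of which 7 passed, and -1.23 for all genes tested. The size of these fold changes depends on the scaling. With values scaled to the library total no member passed, beside 0.158% of all genes, and all 9 log2 fold changes were much smaller. Both mitochondria libraries then lay above both others in 4 members, Gm13341, Gm13339, Gm4076 and Gm11407, and in 0.523% of all genes tested, against 9 members and 8.59% as deposited. The log2 fold changes came to 0.98 for Gm13341, 0.82 for Gm13339, 1.03 for Gm4076, 1.05 for Gm11407, 0.29 for Gm11512 and 1.75 for Gm50174, and turned to -0.16, -0.11 and -0.01 for Gm11408, Gm11410 and Gm20594. The 1.75 of Gm50174 rests on listed values of 0 and 1 unit in the non-mitochondrial libraries and on the 1 added. It is no measured fold change, and the groups of Gm50174 overlapped under this scaling. Without either non-mitochondrial library 0 members and 0% of all genes passed. Without mitochondria replicate 1 or 2 all 9 passed, beside 5.68% and 7.57% of all genes.

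**Figure D3:**
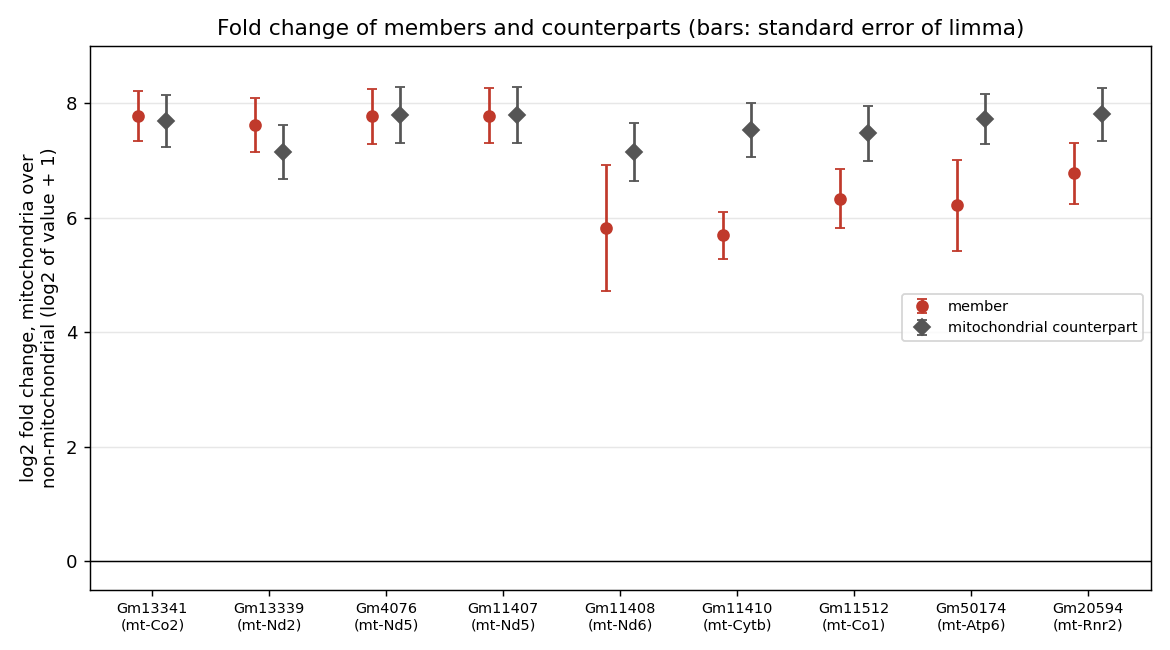
Log2 fold change of mitochondria over the non-mitochondrial fraction (vertical axis, from log2 of the value plus 1) for each member (circles) and its mitochondrial counterpart (diamonds), with the standard error of limma as bars, 2 libraries per group. The chromosome 2 pair, Gm4076 and Gm11407 lie at or above 7.62 next to their counterparts, and the other 5 lie between 5.69 and 6.78 and below theirs. In 4 of these 5, all but Gm20594, the 1 added to non-mitochondrial values of at most 2 units lowers the fold change. Their mean ratio to the counterpart in mitochondria, over that in the other fraction, was 1.12 for Gm50174, 0.799 for Gm11408, 0.695 for Gm11512 and 0.549 for Gm11410. The groups overlapped in all but Gm11410, which is within rounding.

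The ratio of a member to its counterpart within a library does not depend on scaling between libraries. Between members it covered more than 3 orders of magnitude, and the ratio of the highest to the lowest mean in mitochondria was 9508. Gm13341 amounted to 19.2% and 19.9% of the units of mt-Co2 in mitochondria and to 18.5% and 18.1% in the other fraction. The means were 19.5% ± 0.503 and 18.3% ± 0.312 (SD, n = 2 each), and per kilobase they were 19.9% and 18.6%. The groups did not overlap, yet the means differed by a factor of 1.07.

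Gm13339 amounted to 7.04% and 6.99% of mt-Nd2 in mitochondria and to 5.02% and 5.06% in the other fraction. The means were 7.01% ± 0.0360 and 5.04% ± 0.0327 (SD, n = 2 each), a factor of 1.39, and per kilobase 14.3% and 10.3%. Of the members with at least 10 units in every library, Gm13339 was the one whose ratio was furthest above that of the non-mitochondrial fraction.

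Gm20594 went the other way. It amounted to 0.0175% and 0.0125% of mt-Rnr2 in mitochondria and to 0.0308% and 0.0289% in the other fraction. The means of 0.0150% ± 0.00353 and 0.0299% ± 0.00130 (SD, n = 2 each) differed by a factor of 0.501, and per kilobase they were 0.0527% and 0.105%. In absolute terms mt-Rnr2 held 131780718 and 104148183 units in mitochondria, so even this small ratio gave Gm20594 the third place among the members.

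The ratios of the mt-Nd5 copies were nearly the same in both fractions. Gm4076 amounted to 0.189% and 0.162% of mt-Nd5 in mitochondria and 0.174% and 0.165% in the other fraction, and the groups overlapped. Gm11407 amounted to 0.151% and 0.154% in mitochondria and 0.145% and 0.147% in the other fraction, a factor of 1.05 between means without overlap. The non-mitochondrial values of Gm11407 rest on 15 and 24 units, where rounding alone moves the ratio between 0.140% and 0.150% in replicate 1, so this small gap is close to the rounding.

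Ratios of the 4 low members are coarse in the non-mitochondrial fraction. Gm11408 amounted to 0.173% and 0.0473% of mt-Nd6 in mitochondria and to 0.100% and 0.175% in the other fraction. Gm11512 amounted to 0.00342% and 0.00326% of mt-Co1 in mitochondria and to 0.00695% and 0.00265% in the other fraction. Gm50174 amounted to 0.00620% and 0.00292% of mt-Atp6 in mitochondria and to 0.00814% in replicate 2 of the other fraction, with replicate 1 listed at 0. In all of these the groups overlapped.

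Gm11410 amounted to 0.00187% and 0.00224% of mt-Cytb in mitochondria and to 0.00435% and 0.00312% in the other fraction. The groups did not overlap as deposited, but the non-mitochondrial value of 1 unit stands for anything between 0.00156% and 0.00468% in replicate 2 once rounding is counted, a range that holds both mitochondria values. As deposited, the ratio was higher in mitochondria without overlap in 3 of the 9 members and lower in 2, of which Gm11410 is within rounding. Among the 8 nuclear copies outside the set, Gm13340 and those on chromosome 1, it was higher without overlap in 3 and lower in 3, so the members' count was not larger than that of the other copies.

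**Figure D4:**
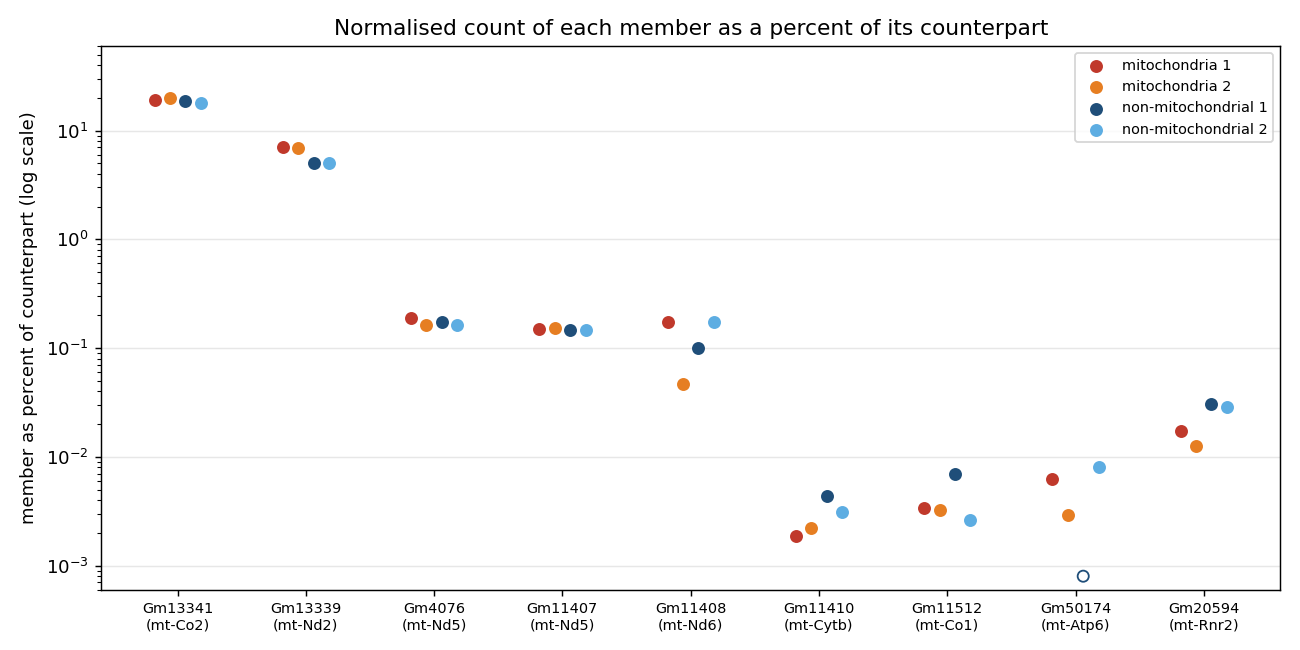
Normalised count of each member as a percent of its mitochondrial counterpart (vertical axis, log scale), coloured by library, for 2 libraries of mitochondria and 2 of the non-mitochondrial fraction. Gm13341 lies between 18.1% and 19.9% in all 4 libraries and Gm11410 between 0.00187% and 0.00435%; the open circle at the lower edge is Gm50174, listed at 0 in non-mitochondrial replicate 1.

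The reads recovered in mitochondria gave the share of a member in the reads of member and counterpart together, separately for each replicate. The values are a description with 95% Wilson intervals. The intervals cover counting error only and take each read as placed independently, whereas reads that fit both genes are present and were shared out in an unknown way. No call is made from these intervals, since each replicate is 1 library and the values were known when the members were chosen.

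Gm20594 had a share of 0.0175% (0.0168 to 0.0181%) in replicate 1 and 0.0125% (0.0119 to 0.0130%) in replicate 2, a ratio to mt-Rnr2 1.40 times as high in replicate 1. Gm11408 had 0.172% (0.127 to 0.234%) and 0.0474% (0.0240 to 0.0936%), a factor of 3.65. Gm13341 had 16.1% (15.9 to 16.2%) and 16.6% (16.4 to 16.8%), a factor of 0.964. The intervals of the replicates did not overlap in Gm20594, Gm11408 and Gm13341. Among the 8 nuclear copies outside the set they did not overlap in Gm13340 and Gm29216, so such gaps were not particular to the members.

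Gm4076 had shares of 0.188% (0.175 to 0.203%) and 0.162% (0.150 to 0.175%), a factor of 1.16, with intervals that just met. Gm13339 had 6.57% (6.46 to 6.68%) and 6.53% (6.42 to 6.64%), and Gm11407 had 0.151% (0.139 to 0.164%) and 0.154% (0.142 to 0.167%). Their intervals overlapped, as did those of Gm11410, Gm11512 and Gm50174, which rested on 9 to 29 reads and could not show a small difference.

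Identity and ratio went together loosely. Across the 9 members Spearman's rho between identity and the mean ratio to the counterpart in mitochondria was 0.72, and that between the share of identical windows and the ratio was 0.89. These values are descriptions, since the members share their libraries and in part their insertion, and 5 of them tie at no identical window of 75 bases. Identity alone did not order the members. Gm11407, at 92.3%, had a ratio of 0.153% in mitochondria and Gm11410, at 92.9%, had 0.00205%, although both belong to the same stretch of chromosome 4.

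Gm11407 has 21 identical windows of 75 bases and Gm11410 has none at 75 or 50 bases. Gm11407 held 46.7 and 46.2 times the units per kilobase of Gm11410 in the mitochondria libraries, while mt-Nd5 held fewer units per kilobase than mt-Cytb, 1692000 against 5052000 in replicate 1. Gm20594 had no identical window of 75 bases and the lowest identity, yet its ratio of 0.0150% was above those of Gm11512, Gm50174 and Gm11410, which were 0.00334%, 0.00456% and 0.00205%. The longest run of Gm20594 that is identical to mt-Rnr2 was 65 bases, against 54, 55 and 47 bases in Gm11512, Gm50174 and Gm11410. Run length did not order the ratios of these members either. Gm11408, with no identical window at either length and the shortest run of 39 bases, had a mean ratio of 0.110% in mitochondria (SD 0.0886, n = 2), above that of Gm20594. The ratio also depends on the counterpart, and mt-Nd6 held 197579 and 116351 units in mitochondria against 131780718 and 104148183 for mt-Rnr2. Per kilobase Gm11408 held 657 and 106 units in mitochondria, far below the 51250 and 28910 of Gm20594.

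Just outside the set lay Gm13340, which is 97.6% identical to mt-Co1 over its whole length and had 220 identical windows of 1471. It held 730214 and 518394 units in mitochondria and 3658 and 4745 in the other fraction. It amounted to 10.4% and 10.6% of mt-Co1 in mitochondria and to 12.7% and 12.6% in the other fraction, so its ratio was the lower one in mitochondria, opposite to its neighbours Gm13341 and Gm13339. The 7 chromosome 1 copies, with identities of at least 99.7%, had mean ratios between 25.8% and 116% in mitochondria.

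**Figure D5:**
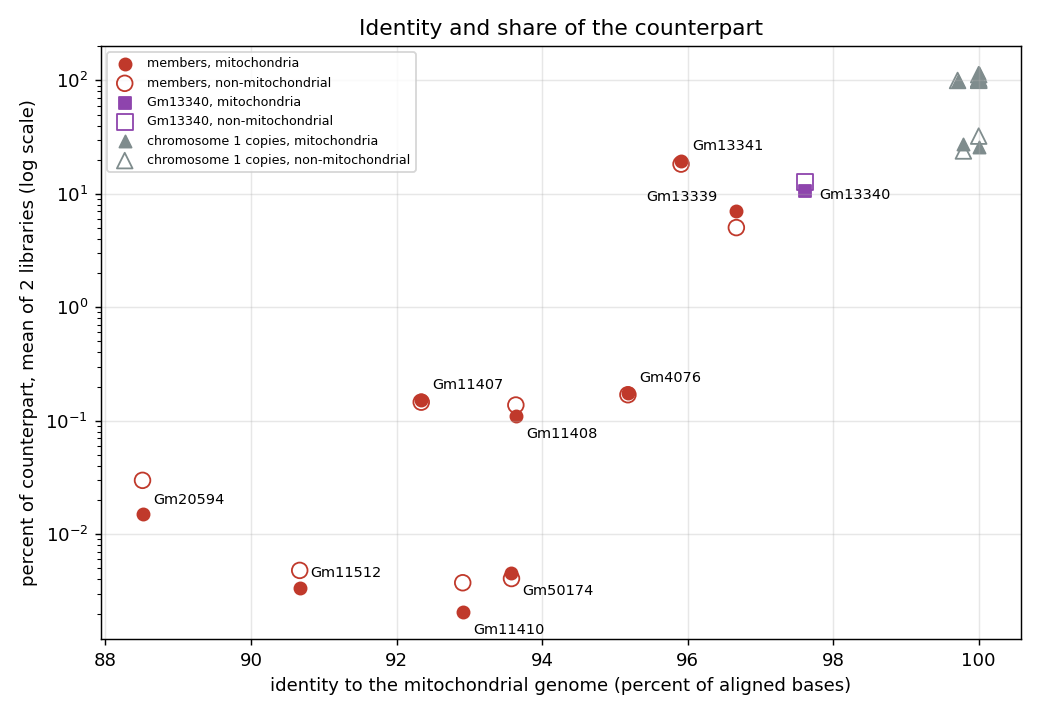
Mean normalised count as a percent of the counterpart (vertical axis, log scale) against identity to the mitochondrial genome in percent of aligned bases (horizontal axis), for the 9 members (circles), Gm13340 (squares) and the 7 chromosome 1 copies (triangles). Filled symbols are means of the 2 mitochondria libraries and open symbols those of the 2 non-mitochondrial ones; members run from 0.00205% to 19.5% in mitochondria, and Gm11407 and Gm11410 differ widely at near-equal identity.

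Together the members took 0.182% and 0.183% of all units in mitochondria and 0.0950% and 0.105% in the other fraction. The means were 0.183% ± 0.000435 and 0.100% ± 0.00711 (SD, n = 2 each). Gm13341 and Gm13339 made up 91.4% and 93.1% of the members' units in mitochondria and 88.4% in both libraries of the other fraction. The other 7 members took 0.0157% and 0.0127% of mitochondria and 0.0110% and 0.0122% of the other fraction. For these 7 the difference between means, 0.00259 percentage points, was close to the SD of 0.00212 in mitochondria.

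The 8 counterparts took 70.2% and 70.1% of all units in mitochondria and 33.7% and 38.3% in the other fraction. The members' units were distributed otherwise, since mt-Rnr2 held 131780718 of the 153586680 counterpart units in mitochondria replicate 1 while its copy Gm20594 held 23010 of the members' 398894. Stxbp4, the host of Gm11512, held 25 and 7 units in mitochondria, which are 3 reads and 1 read, and 3 and 8 units in the other fraction. In mitochondria Gm11512 thus had more reads than its host, and in the other fraction fewer units. Myo3a, the host of Gm13341 and Gm13339, is not among the listed genes.

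The genes outside the mitochondrial matches whose profile over the 4 libraries was nearest to the mean profile of the members were Gm11168, Gm10722 and 4932416K20Rik. The distance was the root mean square difference of log2 values, each gene centred on its mean, and came to 0.254, 0.257 and 0.34. Gm11168 held 208 and 117 units in mitochondria, Gm10722 held 216 and 90, and 4932416K20Rik held 108 and 117, and all 3 were listed at 0 in both non-mitochondrial libraries. Their profiles are therefore fixed in part by the 1 added before the logarithm, and the distances are no measure of a fold change. The mean profile also stands for few of the members, since 8 of the 9 lay between 0.409 and 0.838 from it and Gm20594 lay at 0.048.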

How the data were processed

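The 4 libraries were grouped by their treatment label, 2 per group. Per the methods of the study, reads of up to 75 bases from a stranded kit were trimmed, aligned to mm10 (GRCm38), counted per gene and normalised. The submitters' processing notes name Trimmomatic 0.39, STAR 2.7.10a, featureCounts 2.0.2 and DESeq2 1.30.1, whereas the methods name other versions of STAR, the counting package and DESeq2, and which were used for these files is not known. RNA was treated with DNase. The strand setting of counting is not given in the sources used here. The fragmentation time was adjusted for mitochondrial samples, so library preparation may have differed with the fraction. For hearts the methods also describe treating isolated mitochondria with digitonin and RNase A before RNA isolation. Whether the brown fat samples were treated in the same way is not stated, and the effect of that step was not tested.

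The authors deposited a normalised signal, gene counts divided by a size factor and rounded. In mitochondria the signal rose in steps of 1 read, and 100.0% of values up to 1000 reads were whole multiples of 8.32 units (replicate 1) or 6.901 units (replicate 2) within 0.51 units. In the non-mitochondrial libraries depth is unknown.

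Fold changes came from log2 of the signal plus 1, fitted with limma 3.58.1 in R 4.3.3 over genes with a mean of at least 10, with Benjamini-Hochberg adjustment. A floor of 3 reads corresponds to 25.0 and 20.7 units in mitochondria replicates 1 and 2. Members were aligned with BLAST 2.17.0 to the mitochondrial genome, rebuilt from 37 GENCODE M21 transcripts (15365 bases, with 57 bases between genes unknown), and windows with edlib. Coordinates in M21 equalled the deposited ones for 99.1% of genes. Gm50174 is named AC124578.3 there, and its sequence was not printed.

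Alternatives covered the pseudocount, the filter, 4 scalings, the trend, the replicate block, edgeR 4.0.16 and DESeq2 1.42.0 with the deposited size factors, and leaving out each library. In the count models recovered reads were used for the mitochondria libraries, but the normalised units of the non-mitochondrial libraries were taken as if they were reads, and their p-values are not reliable for that reason. The fit was tested on simulated data. A Fisher test of member reads between the mitochondria libraries was computed but is not reported, because reads that fit several genes are not independent draws. Members, lists and tests were chosen with earlier results of these data known. Named genes were the members, their counterparts and hosts, other nuclear matches and the 3 nearest profiles. Endothelial, macrophage and blood markers summed to at most 456 units in any library and muscle markers to 2705 and 1269 units in mitochondria and 240 and 500 in the other fraction.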

Additional observations from a re-analysis of the deposited data

How the results depend on the processing

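Of 135 log2 fold changes of members under 15 alternatives, 132 kept their direction. That count says little about stability. The filters, the trend and the replicate block leave a fold change as it is. In all alternatives but CPM over all genes the mitochondria libraries kept far larger totals, so a positive direction was close to given. With CPM over all genes, where the median over all genes was -7.15 instead of -1.23, Gm11408, Gm11410 and Gm20594 turned to -0.16, -0.11 and -0.01, and 0 members passed limma (0.158% of all genes), also 0 members and 0.158% of genes at an unadjusted p under 0.05; no other tool was run under that scaling. Under the deposited scaling, where limma called 7 members (0.803% of all genes), edgeR called 8 (1.57%) and DESeq2 9 (2.3%), both with non-mitochondrial units used in place of unknown reads. With a pseudocount of 10, 6 passed (0.645%). With all listed genes 8 passed (0.829%), with a mean of at least 50 8 (2.58%), with TMM 8 (0.828%), with CPM over nuclear genes without a match 8 (0.889%), with median ratios 7 (0.84%) and with the trend 7 (0.876%). With the replicate number as a block 0 members passed, as did 0 of all genes, while 9 members and 2.88% of all genes had an unadjusted p under 0.05 in the direction of mitochondria. Whether the numbers pair the samples is unknown: no label says so, the deviations of the 2 pairs had a correlation of 0.112, and liver markers summed higher in replicate 1 of both fractions (9062 against 629 and 152 against 4 units). Leaving out one library gave 0 to 9 members passing, 0 without either non-mitochondrial library (0% of all genes; at an unadjusted p under 0.05, 8 members in each case beside 1.24% and 1.07% of genes) and 9 without mitochondria replicate 1 (5.68%) or 2 (7.57%), where the lone sample is assumed to vary like the others. The median over members of the log2 fold change minus that of the counterpart was -1.03, ranged from -1.18 to -0.40 on leaving out one library (-0.40 without mitochondria replicate 2, -0.66 without non-mitochondrial replicate 1), and was -0.01 (-0.009) over the 5 members with at least 10 units in each library, an alternative chosen after the data were seen. The members' share of a library differed by 0.0826 percentage points, 0.824 without the 2 mitochondrial rRNA genes in the totals, 3.71 over nuclear genes only, 0.00259 without Gm13341 and Gm13339 (added after the data were seen), and 0.0776 to 0.0876 on leaving out one library. Identical windows rose from 4.04% to 8.19%, and members holding any from 4 to 7, with windows of 50 bases, which are shorter. Intervals cover counting error only, PCR duplicates are not separable, and with units of unknown depth the ratios of members with 2 units or fewer are limited by rounding.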

Other observations

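Annotated nuclear genes were sorted by identity to the mitochondrial genome over at least 100 aligned bases. Of 8 genes with an identity of 97% or more, 8 were among the listed genes, namely the 7 chromosome 1 copies and Gm13340. Of 9 genes between 90% and 97%, 8 were listed, and all 8 are members described above. The gene not listed was Gm43743, with 116 aligned bases at 94.8%. Between 88% and 90%, Gm20594 was listed and Gm12155, with 158 aligned bases at 88.6%, was not.

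Of 39 genes below 88%, 1 was listed, the centrosome gene Cep295. The listed genes with mitochondrial sequence were thus mostly those with the highest identity, 16 of the 17 annotated genes with at least 90% identity over at least 50 bases. Of these 16, 8 are members, which were chosen among listed genes, so that count was in part set by the choice. With identity lowered to 80%, 19 of 35 were listed. The listed genes added were Gm20594 and the protein-coding genes Naaa and Fbxo3, with 91 and 50 aligned bases. These counts describe the annotation and the table and carry no test.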
